A study of Mus musculus with 32 samples.

Results

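In whole bone marrow, 11 of 41388 genes met a rule for transcripts that stood higher in DTRADQ mice than in controls after 1 day of diphtheria toxin and whose ratio to controls was under a set limit after 3 days. They were Ighg1, Ighv1-39, Ighv9-4, Ighv1-76 and Igkv1-117, which are 5 immunoglobulin genes, and Gem, Nacad, Sparcl1, Plek2, Pdzk1 and Lhx1, which are 6 protein-coding genes of other kinds. The rule used CPM (reads of a gene as a share of the library total, scaled up to a common total) and r, the log2 ratio of the DTRADQ mean to the control mean after adding 0.1 CPM to each. A gene was kept with a DTRADQ mean of at least 2 CPM at day 1, r of at least 0.8 at day 1, r under 0.4 at day 3, and its lowest DTRADQ library at day 1 above the highest control library. Of 109 genes at or above both day 1 minimums, 42 had groups that did not overlap, 17 of these had r under 0.4 at day 3, and 6 were left out because their symbols begin with Ccl, Cxcl, Egr, Fos, Jun or Ear.

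DTRADQ mice (DTR flox, ADQ Cre+) carry an inducible diphtheria toxin receptor that is switched on by a Cre recombinase driven by the adiponectin promoter, so the toxin kills cells that have expressed adiponectin, among them marrow adipocytes and the stromal cells of their lineage. Controls (Con; DTR flox, No Cre) were littermates without Cre, which received the same toxin. All mice were C57BL/6 and 2 months old, and 100 ng of diphtheria toxin (DT) was injected into the peritoneal cavity each day. Whole femur marrow was taken without DT and after 1, 2 or 3 days of it, from 4 mice per group, 32 libraries in all. The libraries are bulk RNA, in which fewer cells of a type and less RNA per cell cannot be told apart.

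Antibodies are built from heavy and light chains, each with a variable (V) segment chosen from a large family during B cell development and a constant segment. Plasma cells, many of which lodge in the marrow among stromal cells, carry most of the RNA of switched constant segments such as IgG1, IgG2 and IgA, and each clone uses its own V segments. The other 6 genes encode different kinds of protein. Plek2 encodes pleckstrin-2, a membrane-binding protein of the actin cytoskeleton with a known role in red cell precursors, Gem a small GTPase of the RGK family that acts on calcium channels and the cytoskeleton, and Sparcl1 a secreted matricellular glycoprotein related to SPARC. Pdzk1 encodes a scaffold with PDZ domains that holds membrane transporters and the HDL receptor SR-BI, Lhx1 a LIM-homeodomain transcription factor, and Nacad a protein with the alpha domain of the nascent polypeptide-associated complex. None of the 11 stood in any of the 24 pathway and cell type lists used here.

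The V segments are shown first, since near-identical relatives decide how surely their reads can be placed. Over the last 305 bases of its transcript, which are V exon, Igkv1-117 differed from its closest relative Igkv1-110 at 10 positions, an identity of 96.7%, and 49.9% of its 50-base windows also occurred in another gene's transcript. Below are the 90 bases of each with the most differences, from the GENCODE transcripts of GRCm38, with differing bases in capitals and the Igkv1-117 stretch at chr6:68121568-68121657 on the plus strand. Ighv1-39, with 7.28% of windows shared, differed from its closest relative Ighv1-42 at 22 positions, and its stretch lies at chr12:114914717-114914806 on the minus strand.
Igkv1-117: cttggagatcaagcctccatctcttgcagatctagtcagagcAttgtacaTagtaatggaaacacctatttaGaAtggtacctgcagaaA
Igkv1-110: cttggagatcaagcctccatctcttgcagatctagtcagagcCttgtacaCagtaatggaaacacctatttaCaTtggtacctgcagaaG
Ighv1-39: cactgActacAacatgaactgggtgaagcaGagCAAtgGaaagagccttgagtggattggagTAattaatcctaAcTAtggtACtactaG
Ighv1-42: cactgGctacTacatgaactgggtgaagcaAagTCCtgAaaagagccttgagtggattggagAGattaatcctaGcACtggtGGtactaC
The share of windows found elsewhere was 18.9% for Ighv9-4 and 18.8% for Ighv1-76, and 0.393% for Ighg1. The counts of Igkv1-117, Ighv9-4 and Ighv1-76 are therefore uncertain where the counting split reads between relatives.

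Promoters, from 250 bases before to 50 after the start, were present in the RefSeq table (GRCm38.p6) for 4 of the 11 genes. Those of Plek2 (chr12:78906889-78907188, minus strand), Nacad (chr11:6606005-6606304, minus strand) and Pdzk1 (chr3:96829815-96830114, plus strand) are shown because these 3 genes had the lowest r at day 3 outside the immunoglobulins. Capitals mark matches to the GC box GGGCGG and the CCAAT box CCAAT on either strand, 2 of the 8 motifs searched.
Plek2: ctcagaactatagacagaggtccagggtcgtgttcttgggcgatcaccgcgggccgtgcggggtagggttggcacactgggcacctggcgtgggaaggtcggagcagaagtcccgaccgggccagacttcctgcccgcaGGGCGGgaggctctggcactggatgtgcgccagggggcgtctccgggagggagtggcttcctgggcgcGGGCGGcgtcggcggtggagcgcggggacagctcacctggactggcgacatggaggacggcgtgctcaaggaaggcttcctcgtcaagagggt
Nacad: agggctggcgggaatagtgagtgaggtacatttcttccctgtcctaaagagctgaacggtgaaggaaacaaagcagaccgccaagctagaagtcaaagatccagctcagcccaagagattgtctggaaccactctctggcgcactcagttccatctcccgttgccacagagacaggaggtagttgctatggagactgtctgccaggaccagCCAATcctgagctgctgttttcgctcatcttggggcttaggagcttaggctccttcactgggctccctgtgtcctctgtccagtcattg
Pdzk1: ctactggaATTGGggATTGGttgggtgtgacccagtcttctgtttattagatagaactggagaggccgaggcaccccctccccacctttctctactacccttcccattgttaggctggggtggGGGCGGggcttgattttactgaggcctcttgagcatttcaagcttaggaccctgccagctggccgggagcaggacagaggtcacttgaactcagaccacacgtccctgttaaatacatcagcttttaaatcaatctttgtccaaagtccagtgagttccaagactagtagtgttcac
The GC box was present in Plek2 and in the Pdzk1 promoter shown, and in 35.7% of all 32851 promoters. The CCAAT box was present in Nacad, Pdzk1 and Lhx1 and in 37.4%. A second Pdzk1 promoter (chr3:96831921-96832220, plus strand), not shown, had a CCAAT box and no GC box. No match to the GATA site AGATAA, the octamer ATGCAAAT, the E-box CACGTG, the CRE TGACGTCA, the AP-1 site TGANTCA or the STAT site TTCNNNGAA was present in the promoters of these 4 genes. These matches describe the letters of the windows and nothing about binding.

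The libraries held 8.97 to 22.93 M counts each. Adipoq, the marker of the targeted lineage, lay between 0.208 and 0.991 CPM in the 12 DTRADQ libraries after DT and between 33.8 and 77.0 CPM in the 12 control libraries after DT. Controls without DT stood apart, with 8.97 to 14.23 M counts and up to 50.7% of counts in the 10 most abundant genes. Scaling matters for r: by library totals, the median r of all tested genes was -0.25 at day 1, -0.35 at day 2, -0.18 at day 3 and 0.41 without DT. Scaling by TMM (trimmed mean of M values), which the tests used, raised the median by 0.24, 0.32 and 0.16 at days 1, 2 and 3 and lowered it by 0.42 without DT.

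A second feature of the control libraries bears on which genes met the rule. In 7 of the 16 control libraries, namely replicates 3 and 4 of the groups without DT, of day 1 and of day 2 and replicate 4 of day 3, transcripts of switched antibody classes were low. Ighg2c, the IgG2c constant segment, lay between 0.781 and 4.21 CPM in these 7, between 63.4 and 144 CPM in the other 9 control libraries, and between 47.2 and 279 CPM in the 16 DTRADQ libraries. Igha, the IgA constant segment, lay between 32.2 and 150 CPM in the 7, 629 and 1393 CPM in the other 9, and 287 and 1415 CPM in DTRADQ. Jchain, the joining chain of secreted IgA and IgM, lay between 23.1 and 104 CPM in the 7, 394 and 1060 CPM in the other 9, and 293 and 1102 CPM in DTRADQ. Ighm, the IgM constant segment made by naive B cells, did not divide the day 1 controls in this way, with 1057, 1061, 1155 and 1054 CPM in replicates 1 to 4, but it did divide the controls without DT, at 1363 and 1017 CPM in replicates 1 and 2 and 447 and 176 CPM in replicates 3 and 4. Without the 7 libraries, which leaves 2 control libraries at day 1 and 3 at day 3, 7 of the 11 genes still met the rule. Igkv1-117, Ighv1-76 and Lhx1 then had r under 0.8 at day 1, at 0.46, 0.63 and 0.70, and Sparcl1 had r over 0.4 at day 3, at 0.62. The part of this difference between control libraries in the results below was not tested; the 7 libraries are included in each value unless it is said that they are not.

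**Figure D1:**
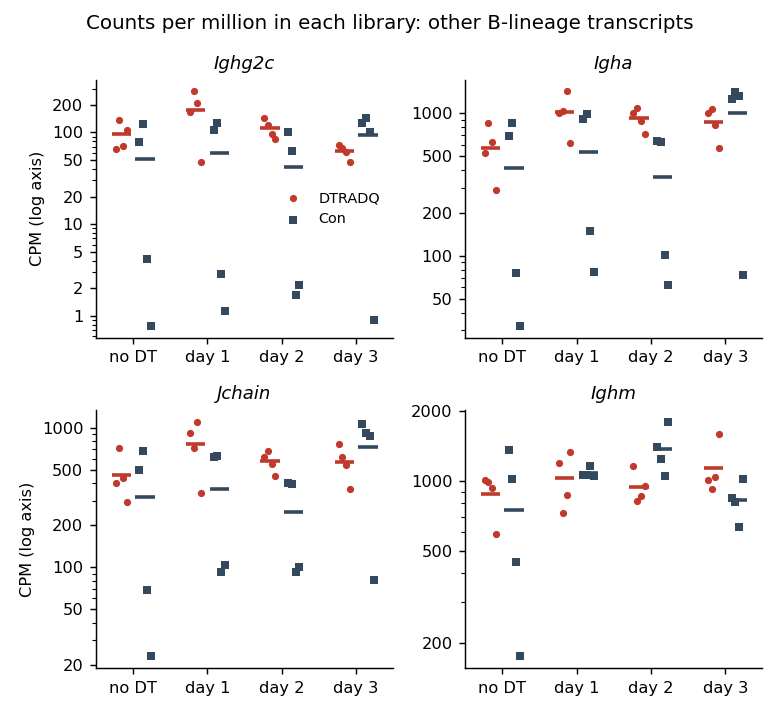
CPM on a log axis in each library (points) with group means (bars) for Ighg2c, Igha, Jchain and Ighm, in DTRADQ (circles) and controls (squares) by toxin day. Ighg2c was at most 4.21 CPM in 7 control libraries and at least 47.2 CPM in every other library.

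Of the protein-coding genes, 3 had a mean below the controls at day 3 (Plek2, Pdzk1 and Nacad) and 3 a mean above them that was within the limit of the rule (Gem, Sparcl1 and Lhx1). The day 1 and day 3 values chose the genes, so they are described without a test. As background, edgeR called 0.888% of 14527 tested genes higher and 3.02% lower in DTRADQ at day 1, and 8.8% higher and 14.1% lower at day 3. By CPM, 1.06% of tested genes had all DTRADQ libraries above all controls at day 1.

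Plek2 (ENSMUSG00000021118, chr12:78888691-78906964, minus strand, GRCm38) showed the widest swing. At day 1 its level was 26.6, 36.5, 27.9 and 31.5 CPM in DTRADQ and 15.4, 18.9, 12.1 and 14.2 CPM in controls. At day 3 it was 4.05, 3.26, 7.56 and 2.57 CPM in DTRADQ and 11.6, 12.4, 12.7 and 19.6 CPM in controls. The groups were thus apart on both days, with DTRADQ on top at day 1 and below at day 3. Means were 30.6 ± 4.44 CPM (SD, n = 4) against 15.2 ± 2.84 CPM at day 1, r = 1.01, and 4.36 ± 2.22 CPM against 14.1 ± 3.71 CPM at day 3, r = -1.67. The control means stayed between 11.3 and 15.2 CPM across the 4 time points, while the DTRADQ mean went from 17.8 CPM without DT to 30.6, 16.2 and 4.36 CPM. At day 2 the DTRADQ libraries spread widely, at 17.9, 16.7, 5.83 and 24.4 CPM around control values of 14.3, 10.3, 15.0 and 15.9 CPM. Beside these levels, the summed CPM of 17 erythroid markers, of which none was at 0 and which is mostly globin RNA, ranged from 97484 to 143555 in DTRADQ and from 71544 to 124277 in controls at day 1, and from 99511 to 140112 and from 74704 to 107335 at day 3. That sum was higher on average in DTRADQ on both days, unlike Plek2 at day 3; its part in the Plek2 values was not tested.

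Pdzk1 (ENSMUSG00000038298, chr3:96829284-96870926, plus strand) had 3.82, 4.31, 4.60 and 6.94 CPM in DTRADQ at day 1 and 1.53, 3.27, 2.59 and 3.09 CPM in controls. At day 2 it had 4.85, 3.42, 3.26 and 3.12 CPM against 1.04, 2.65, 2.12 and 2.11 CPM, so that every DTRADQ library was again above every control, as in 2.0% of tested genes. At day 3 it had 1.37, 0.977, 1.72 and 0.806 CPM against 2.67, 2.79, 0.711 and 2.90 CPM, with 1 low control library below every DTRADQ library. The value of r went from 0.88 at day 1 to 0.86 at day 2 and -0.85 at day 3. Reads of Pdzk1 are uncertain: 37.5% of its 3556 exonic bases overlap Gpr89, which lies on the other strand, and 1.91% overlap Cd160, and the counting is not stated to use strand. Gpr89 itself had the lower mean in DTRADQ, 17.2 ± 1.04 CPM (SD, n = 4) beside 25.2 ± 0.784 CPM in controls at day 1, and 16.2 ± 2.72 CPM beside 23.6 ± 1.22 CPM at day 2, where its log2 change under TMM scaling was -0.22 (SE 0.12, edgeR adjusted p = 0.236).

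Nacad (ENSMUSG00000041073, chr11:6597823-6606053, minus strand) was a low transcript, with 22 to 51 reads per DTRADQ library at day 1. Its level at day 1 was 3.61, 3.22, 1.87 and 1.98 CPM in DTRADQ and 0.997, 1.39, 1.21 and 0.905 CPM in controls. At day 2 it was 2.08, 3.58, 1.04 and 2.51 CPM against 0.761, 0.664, 1.17 and 0.937 CPM, a single DTRADQ library reaching into the control range. At day 3 the order had turned, with 0.910, 1.14, 1.33 and 1.01 CPM against 1.45, 1.96, 2.94 and 1.52 CPM, and no overlap. Plek2 and Nacad were the 2 genes of the 11 whose DTRADQ libraries all lay below the controls at day 3, as did 29.0% of tested genes. Between day 1 and day 3 the DTRADQ mean of Nacad went from 2.67 to 1.10 CPM and the control mean from 1.13 to 1.97 CPM. Day 3 libraries carry another lane entry in their labels, which cannot be told apart from such changes of level.

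**Figure D2:**
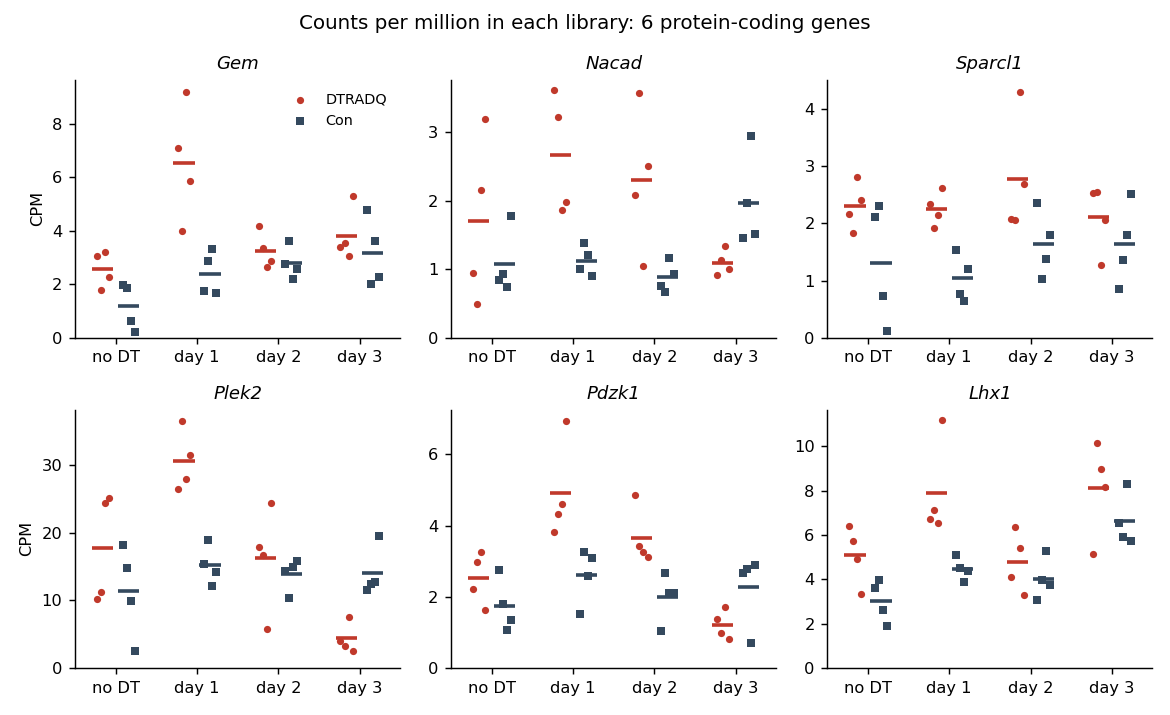
CPM in each library (points) with group means (bars) for the 6 protein-coding genes, in DTRADQ (circles) and controls (squares) by toxin day. The groups are apart at day 1 in every panel, which the rule required, and Plek2 and Nacad are apart again at day 3 with DTRADQ below.

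Gem (ENSMUSG00000028214, chr4:11704457-11714752, plus strand) had the largest day 1 ratio of the protein-coding genes, r = 1.41. At day 1 the DTRADQ libraries held 7.08, 3.97, 9.19 and 5.86 CPM and the control libraries 1.73, 2.85, 3.31 and 1.66 CPM. By day 2 the groups overlapped, at 4.16, 3.34, 2.64 and 2.86 CPM against 2.77, 3.61, 2.19 and 2.58 CPM. At day 3 they still overlapped, with means of 3.81 ± 1.00 and 3.16 ± 1.27 CPM. Without DT the means were 2.57 CPM in DTRADQ and 1.17 CPM in controls, so r was already 1.07, where the median of tested genes was 0.41. The DTRADQ mean at day 1, 6.53 CPM, stood above each other DTRADQ mean.

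Sparcl1 (ENSMUSG00000029309, chr5:104079111-104114088, minus strand) had no higher mean in DTRADQ at day 1 than without DT. Its level at day 1 was 2.34, 1.92, 2.15 and 2.61 CPM, beside 2.17, 1.83, 2.82 and 2.42 CPM in DTRADQ without DT, a log2 difference of means of -0.03. Without DT its r was 0.77. The controls were the lower group at day 1, at 1.53, 0.765, 0.646 and 1.21 CPM, and reached a mean of 1.63 ± 0.704 CPM at day 3 against 2.10 ± 0.599 CPM in DTRADQ. The lowest control library without DT held 1 read of Sparcl1, the fewest of any of the 11 genes in any library. The lower r of Sparcl1 at day 3, 0.35 against 1.05 at day 1, thus went with a higher control mean and a nearly level DTRADQ mean. Without the 7 libraries low in switched classes, r was 0.92 at day 1 and 0.62 at day 3, which is over the limit of the rule.

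Lhx1 (ENSMUSG00000018698, chr11:84518284-84525535, minus strand) had no lower mean in DTRADQ at day 3 than at day 1. At day 1 it had 6.73, 7.12, 6.54 and 11.2 CPM in DTRADQ and 5.12, 4.52, 3.88 and 4.37 CPM in controls. At day 3 it had 5.16, 10.2, 8.96 and 8.16 CPM against 6.53, 5.89, 8.30 and 5.75 CPM. The DTRADQ mean was 7.89 CPM at day 1 and 8.11 CPM at day 3, while the control mean went from 4.47 to 6.61 CPM. Its r at day 1 was 0.81, close to the minimum, and 0.70 without the 7 libraries, which is under it. Without DT its r was 0.73. Day 3 libraries carry another lane entry in their labels than the other 24 libraries, so a change of level between day 1 and day 3 and this lane difference cannot be told apart, and r, which compares groups of the same day, does not cross it.

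Over all 11 genes, the DTRADQ mean was lower at day 3 than at day 1 in 10 genes, Lhx1 being the exception, and the control mean was higher at day 3 than at day 1 in 9, Plek2 and Pdzk1 being the exceptions. The DTRADQ mean was highest at day 1 in 8 genes; Ighv9-4 and Sparcl1 were highest at day 2 and Lhx1 at day 3. The day 1 and day 3 values chose the genes, so these counts are a description only, with no share over all genes beside them. Those between day 1 and day 3 also cross the lane difference, which cannot be told apart from a change of level. Without the 7 libraries, r at day 1 was 1.47 for Gem, 1.10 for Nacad, 1.01 for Pdzk1 and 0.83 for Plek2, and at day 3 it was 0.14, -0.89, -0.71 and -1.47 in the same order.

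**Figure D3:**
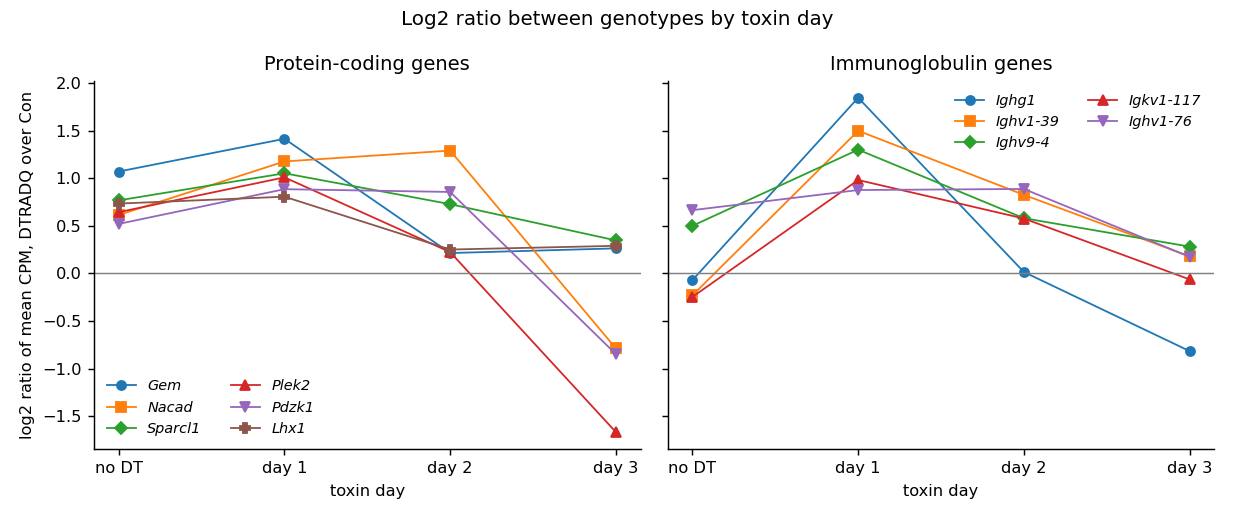
Log2 ratio r of the DTRADQ mean CPM to the control mean CPM (each plus 0.1) without DT and at days 1, 2 and 3, one line per gene, protein-coding genes on the left and immunoglobulin genes on the right. Plek2 ends lowest at -1.67, followed by Pdzk1 at -0.85, Ighg1 at -0.82 and Nacad at -0.79.

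Ighg1 (ENSMUSG00000076614, chr12:113328976-113330523, minus strand), the constant segment of IgG1, had the largest r at day 1, 1.85, a ratio of 3.59 between means with 0.1 CPM added. The DTRADQ libraries held 91.6, 54.2, 82.0 and 30.9 CPM and the control libraries 23.2, 29.5, 5.33 and 13.6 CPM, so that the lowest DTRADQ and the highest control library were close. At day 3 the levels were 30.9, 50.8, 20.5 and 23.8 CPM in DTRADQ and 44.5, 81.8, 87.2 and 8.50 CPM in controls, r = -0.82. The control mean at day 3 was 55.5 ± 36.6 CPM, with its lowest value in replicate 4, which is also the library low in Ighg2c, Igha and Jchain. Without DT the control libraries already ran from 0.781 to 114 CPM. Without the 7 low libraries, r for Ighg1 was 1.29 at day 1, -0.51 at day 2 and -1.17 at day 3.

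Ighv1-39 (ENSMUSG00000095130, chr12:114914599-114915032, minus strand), a heavy chain V segment, held 5.38, 3.49, 7.25 and 3.33 CPM in DTRADQ at day 1 and 2.59, 2.85, 0.889 and 0.302 CPM in controls. The 2 lowest control values were replicates 3 and 4. At day 3 the levels were 3.49, 2.33, 4.26 and 3.78 CPM against 3.35, 3.66, 3.70 and 1.47 CPM, with all but 1 control library inside the DTRADQ range. Without the 7 libraries its r was 0.82 at day 1 and -0.04 at day 3, against 1.50 and 0.18 with them.

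Igkv1-117 (ENSMUSG00000094335, chr6:68121091-68121827, plus strand), a kappa light chain V segment, held 30.7, 22.7, 28.4 and 24.8 CPM in DTRADQ and 18.1, 20.6, 7.92 and 7.09 CPM in controls at day 1. At day 2 it held 18.6, 20.7, 21.2 and 19.1 CPM against 16.9, 18.5, 7.88 and 9.92 CPM, a separation that rests on a difference of less than 0.1 CPM between the nearest libraries. At day 3 it held 27.2, 21.5, 19.1 and 22.6 CPM against 36.8, 21.8, 27.6 and 8.22 CPM. On each of these days the lowest control values were in the libraries low in switched classes. Without them, r at day 1 was 0.46, under the minimum of the rule, against 0.98 with them.

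Ighv9-4 (ENSMUSG00000094322, chr12:114299961-114300254, minus strand) held 4.18, 3.08, 3.23 and 2.25 CPM in DTRADQ and 1.99, 1.39, 0.727 and 0.83 CPM in controls at day 1, with r of 1.30. Ighv1-76 (ENSMUSG00000093896, chr12:115847881-115848174, minus strand) held 5.03, 6.10, 5.24 and 5.23 CPM against 2.26, 4.66, 2.18 and 2.49 CPM, with r of 0.88. Its controls at day 1 were low in replicate 1 as well as in replicates 3 and 4, so the order differed from that of Ighg2c. Without the 7 libraries, r at day 1 was 0.88 for Ighv9-4 and 0.63 for Ighv1-76. At day 3, r was 0.28 for Ighv9-4 and 0.17 for Ighv1-76 over all libraries.

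The V genes outside the 11 were described in the same way, over those that passed the filter of the tests, which is the filter behind the shares of all tested genes. Of 204 heavy and light chain V genes, 164 passed, 160 of them not among the 11. Their median r was 0.71 on day 1, 0.47 on day 2 and 0.19 on day 3, and without the 7 control libraries it was 0.20, 0.12 and -0.09. At day 1, 62 of the 160 (38.8%) had r of at least 0.8, beside 1.36% of all tested genes, and 19 (11.9%) without the 7 libraries, beside 1.39%. At day 2, 44 (27.5%) had r of at least 0.8, beside 1.71%, and 23 (14.4%) without the 7 libraries, beside 1.73%. Both medians and counts were thus lower without the 7 control libraries. The summed CPM of all V genes at day 1 was 1936, 1694, 1996 and 1128 in DTRADQ and 1410, 1481, 735 and 596 in controls. That sum overlapped between groups and was lowest in control replicates 3 and 4. The V genes share clones and libraries, so their number is not a number of independent observations.

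**Figure D4:**
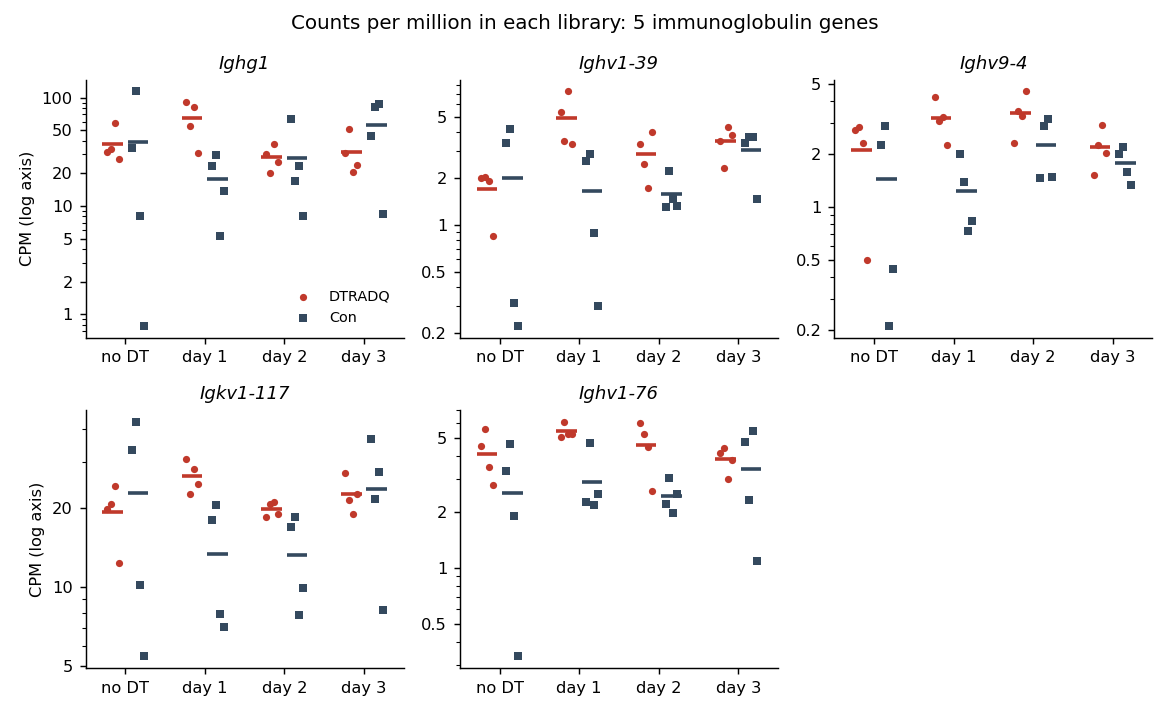
CPM on a log axis in each library (points) with group means (bars) for the 5 immunoglobulin genes, in DTRADQ (circles) and controls (squares) by toxin day. The control libraries without DT run from 0.781 to 114 CPM in Ighg1, beside 27.2 to 57.7 CPM in DTRADQ.

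Day 2, which the rule did not use, allowed a test of whether the genes were still apart. In edgeR's quasi-likelihood test with Benjamini-Hochberg adjustment over 14527 genes, 3 of the 11 were called higher in DTRADQ and none lower, beside 4.4% of tested genes called higher and 4.12% called lower. All 11 had a log2 fold change above 0, as had 45.9% of tested genes, with a median of 0.92 against -0.04 over all tested genes. DESeq2 called 4 of the 11, beside 979 of 14527 genes called higher and 721 called lower. The unadjusted p was under 0.05 in 8 of the 11. No share over all tested genes is given for the unadjusted p, here or below. Counts by unadjusted p therefore have no background and are not read as a result about the 11. The control libraries low in switched classes carry the numbers 3 and 4 at day 1 and at day 2 alike, so for the immunoglobulin genes the day 2 controls share that feature with the libraries the rule used.

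The 3 that rose were Nacad, Pdzk1 and Ighv1-76. Nacad was higher by 1.69 on the log2 scale (SE 0.45, edgeR adjusted p = 0.0176), in 4 of 4 DTRADQ libraries against the control mean. Pdzk1 was higher by 1.20 (SE 0.34, edgeR adjusted p = 0.0235), also in 4 of 4, and Ighv1-76 by 1.23 (SE 0.39, edgeR adjusted p = 0.0471), in 4 of 4. Over 16 settings of the fit, the edgeR or DESeq2 adjusted p ran from 0.00363 to 0.0861 for Nacad, from 0.00621 to 0.0897 for Pdzk1 and from 0.00718 to 0.132 for Ighv1-76, and the log2 change was 0.97 or more in each. Nacad was called in 14 of these settings, Pdzk1 in 11 and Ighv1-76 in 8. Leaving out control replicate 4 of day 2 ended all 3 calls, and leaving out DTRADQ replicate 2 or control replicate 3 left 1. With 1 day 2 library left out, Ighv1-76 kept its call only without DTRADQ replicate 4. Pdzk1 lost its call without DTRADQ replicate 1 or control replicate 1, 3 or 4. Sparcl1 was called without replicate 1 of either group. Without the 7 control libraries low in switched classes, 2 control libraries were left at day 2. The 1 call that remained was Nacad, at 2.02 (edgeR adjusted p = 0.0445), beside 410 of 14890 genes called higher. In that fit Pdzk1 had 1.32 (edgeR adjusted p = 0.0897) and Ighv1-76 had 1.14 (edgeR adjusted p = 0.0679).

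Sparcl1 missed the threshold, at 1.09 (SE 0.37, edgeR adjusted p = 0.0595), and was the fourth gene that DESeq2 called (DESeq2 adjusted p = 0.0229). Gem, the protein-coding gene with the largest ratio at day 1, had 0.53 at day 2 (SE 0.32, edgeR adjusted p = 0.311), and Plek2 had 0.55 (SE 0.36, edgeR adjusted p = 0.347). Lhx1 had 0.58 (SE 0.24, edgeR adjusted p = 0.132). Among the immunoglobulins, Ighv1-39 had 1.17 (SE 0.52, edgeR adjusted p = 0.149), Ighv9-4 had 0.92 (SE 0.42, edgeR adjusted p = 0.168) and Igkv1-117 had 0.90 (SE 0.40, edgeR adjusted p = 0.153). Ighg1, with the largest ratio of the 11 at day 1, had 0.34 with an SE of 0.70 (edgeR adjusted p = 0.808), and without the 7 libraries -0.15.

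**Figure D5:**
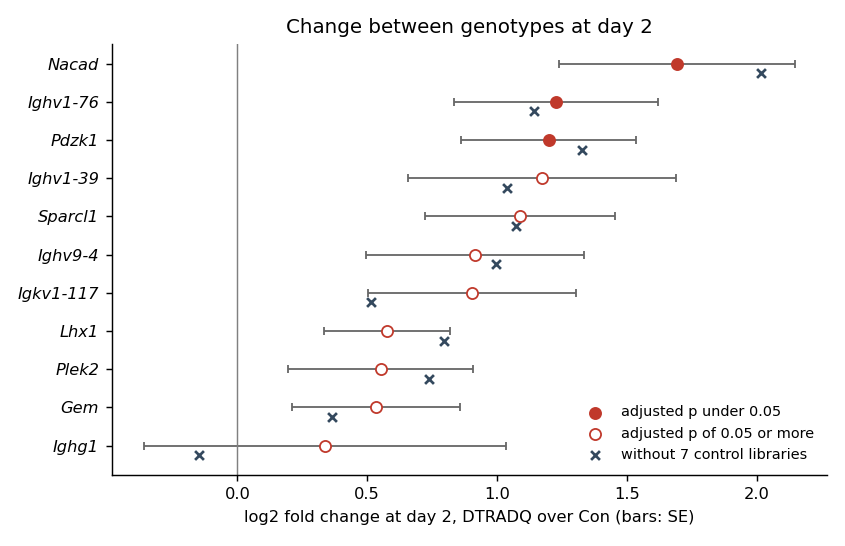
Log2 fold change between DTRADQ and controls at day 2 (circles, bars are SE) for the 11 genes from edgeR's quasi-likelihood fit, filled where the adjusted p was under 0.05, with crosses for the fit without 7 control libraries. Nacad at 1.69, Ighv1-76 at 1.23 and Pdzk1 at 1.20 are filled.

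Before the toxin, none of the 11 was called in either direction by edgeR's quasi-likelihood test, where 27.1% of tested genes were called. That share depended on the fit: with only the groups compared, 0 of 13308 genes were called. The 27.1% is thus not a firm background for the 11. The unadjusted p was under 0.05 in none, and DESeq2 called none, beside 4291 of 14527 genes. The log2 fold changes ran from -0.66 for Ighv1-39 to 0.67 for Gem, with a median of 0.19. By CPM, 8 of the 11 had a higher mean in DTRADQ without DT, where the median r of all tested genes was 0.41. Under TMM scaling 8 had a log2 fold change above 0, beside 49.4% of tested genes. By CPM, none had DTRADQ libraries all above the controls, as 17.5% of tested genes had. With 2 control libraries, replicates 3 and 4, left out of this group alone, Igkv1-117 was called lower in DTRADQ, at -1.19 (edgeR adjusted p = 0.0406). That fit called 1079 of 15044 genes lower. Without all 7 control libraries low in switched classes, Igkv1-117 at -1.18 (edgeR adjusted p = 0.00111) and Ighv1-39 at -1.32 (edgeR adjusted p = 0.0140) were called lower. In this fit 1082 of 14890 genes were called lower.

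Within DTRADQ, none of the 11 was called between day 2 and no DT by edgeR's quasi-likelihood test, which called 9.11% of tested genes. The unadjusted p was under 0.05 in 2 of them, Ighv9-4 and Pdzk1, and DESeq2 called none, beside 1724 of 14527 genes. Their median log2 fold change was 0.47. Without the 7 control libraries, none of which is in either of these groups, Ighv1-39 was called higher at 0.94 (edgeR adjusted p = 0.0298). That fit called 1527 of 14890 genes higher.

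Within controls, Igkv1-117 was lower at day 2 than without DT, by -1.26 on the log2 scale (SE 0.40, edgeR adjusted p = 0.0183), where 14.4% of tested genes were called lower. The other 10 genes did not pass, and the median over the 11 was -0.36. The control libraries of Igkv1-117 held 33.3, 42.8, 10.2 and 5.46 CPM without DT and 16.9, 18.5, 7.88 and 9.92 CPM at day 2, so the groups overlapped. The call was lost without control replicate 2 of the group without DT, at -0.75 (edgeR adjusted p = 0.173), without control replicate 3 of day 2, at -1.08 (edgeR adjusted p = 0.0676), and without its replicate 4, at -1.13 (edgeR adjusted p = 0.0597).

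The difference between the genotypes in the change from no DT to day 2 was tested directly, as an interaction. By edgeR's quasi-likelihood test none of the 11 passed, where 11.1% of tested genes were called, and 4 had an unadjusted p under 0.05. DESeq2 called none of the 11, beside 1986 of 14527 genes. The largest values were 1.83 for Ighv1-39 (SE 0.73, edgeR adjusted p = 0.101), 1.50 for Nacad (SE 0.65, edgeR adjusted p = 0.134) and 1.50 for Igkv1-117 (SE 0.56, edgeR adjusted p = 0.0800). Igkv1-117 passed in the fit with the replicate number as a block, at 1.46 (edgeR adjusted p = 0.0377), beside 1884 of 14527 genes. Leaving out control replicate 4 without DT gave 2 calls, beside 1979 of 14761 genes. These were Igkv1-117 at 1.76 (edgeR adjusted p = 0.0284) and Ighv1-39 at 2.09 (edgeR adjusted p = 0.0455). Leaving out DTRADQ replicate 4 without DT gave 1, Nacad at 2.03 (edgeR adjusted p = 0.0365), beside 1558 of 14755 genes. Without the 7 control libraries, Igkv1-117 at 1.69 (edgeR adjusted p = 0.00183) and Ighv1-39 at 2.36 (edgeR adjusted p = 0.00854) passed, beside 1047 of 14890 genes.

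The marker lists give the cell types around these genes at day 2, in DTRADQ against controls. Of 14 B lineage genes, 4 were called lower and none higher, with a median log2 change of -0.43 against -0.04 over all tested genes. Vpreb1, a surrogate light chain of pre-B cells, was lower by 1.17, and Igll1, its partner, by 0.85 (edgeR adjusted p = 0.0109 and 0.0197). Dntt, the template-independent polymerase of V segment joining, was lower by 1.21 (edgeR adjusted p = 0.00517). Fcer2a, the CD23 receptor of mature B cells, was lower by 1.55 (edgeR adjusted p = 0.00177). Without DT, Vpreb1 and Igll1 were already lower in DTRADQ, at -1.30 and -1.27 (edgeR adjusted p = 0.00104 and 0.000183). Dntt and Fcer2a were not, at 0.08 and 0.25 (edgeR adjusted p = 0.858 and 0.591). Jchain had 1.54 (SE 0.71, edgeR adjusted p = 0.169), and Sdc1, a plasma cell surface proteoglycan, had -0.63 (SE 0.26, edgeR adjusted p = 0.122). In the fit that left out the 7 control libraries, 3 of the 14 were called lower (Fcer2a, Vpreb1 and Dntt), and Jchain had 0.88 (edgeR adjusted p = 0.140).

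Of 17 erythroid genes, Alas2 and Hba-a1 rose and none fell at day 2, by 1.32 and 1.06 on the log2 scale (edgeR adjusted p = 0.00039 and 0.0361), with a list median of -0.10. Klf1, Epor, Tfrc and Gata1, genes of red cell precursors, had -0.94, -0.79, -0.57 and -0.35 and did not pass (edgeR adjusted p = 0.108, 0.0948, 0.160 and 0.153). Without DT, Klf1 and Epor already had -0.94 each (edgeR adjusted p = 0.0558 and 0.0183). Tfrc and Gata1 then had 0.37 and 0.0075 (edgeR adjusted p = 0.291 and 0.977). Alas2 and Hba-a1 had 0.04 and -1.73 without DT (edgeR adjusted p = 0.924 and 0.000252). With the 7 control libraries left out, 4 of the 17 rose, Alas2, Hba-a1, Hbb-bs and Hbb-bt, and the median was 0.15. Of 15 endothelial genes 3 rose, Ecscr, Emcn and Robo4, with none falling, and the same 3 rose without the 7 libraries. Of 43 early response and feedback genes, Rgs16, Plk3 and Ier3 rose and Zfp36l1 fell, with a median of 0.17. Wound and matrix genes had 13 of 29 higher and none lower, with a median of 0.80, and cytoskeleton and adhesion genes had 11 of 32 higher and none lower, with a median of 0.55. Stromal genes of the adiponectin lineage had 11 of 12 lower, with a median of -3.18. With the 7 control libraries left out, the wound and matrix genes had 9 of 30 higher, the cytoskeleton and adhesion genes 6 of 32 higher, and the stromal genes 10 of 12 lower and 1 higher. The genes named from these lists were chosen after their values were seen.

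Levels were compared between genes only per length, as RPKM, which is CPM per kilobase of transcript. In DTRADQ at day 1, the mean RPKM was 74.2 ± 10.04 for Igkv1-117, 66.4 ± 28.2 for Ighg1, 19.4 ± 2.81 for Plek2, 18.4 ± 1.62 for Ighv1-76, 13.9 ± 5.25 for Ighv1-39 and 10.8 ± 2.68 for Ighv9-4. The remaining 5 genes lay lower, Gem at 3.10, Lhx1 at 1.94, Pdzk1 at 1.38, Sparcl1 at 0.724 and Nacad at 0.546. Neighbours in this order overlapped within 1 SD, except Ighg1 and Plek2, Ighv9-4 and Gem, and Pdzk1 and Sparcl1.

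At the edges of the rule, Lhx1 with r of 0.81 and Ighv1-76 with 0.88 lay just inside the day 1 minimum, and Chil4 with 0.70 and Cdkl4 with 0.65 just outside it. For day 3, Sparcl1 with r of 0.35 and Lhx1 with 0.29 lay just inside, and Atf3 with 0.42 and Siglecf with 0.58 just outside. Atf3, a stress-induced transcription factor, had an r of 1.77 at day 1, larger than that of 10 of the 11 genes.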

How the data were processed

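RNA of whole femur marrow was sequenced in 32 libraries, 4 for each of 8 groups. Per the labels' protocols, libraries were made with a Clontech SMARTer kit from total RNA. The build GRCm38 and the tools STAR 2.0.4b, bcl2fastq, featureCounts 1.45 and Subread are listed in the submitters' processing notes. Annotation release, strandedness and handling of multiply matching reads were not given in the sources used here. Each deposited file has a raw count, a CPM and an RPKM per gene, per its header, and the deposited CPM equalled the count over the library total to within 4.4e-10 and the deposited RPKM that value per kilobase to a relative 3.9e-14. Symbols were matched for 97.26% of 41388 genes. No 2 libraries of a group were copies, since their counts differed by a chi-square of 8.72 or more per gene.

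The members were found with the rule in CPM from library totals. Counts were tested in R 4.3.3 with edgeR 4.0.16: filterByExpr with a minimum count of 10 left 14527 genes, all 11 members among them, TMM scaled the libraries, 1 quasi-likelihood model held the 8 group means, and two-sided p-values were adjusted by Benjamini-Hochberg over all tested genes, with a threshold of 0.05. The 5 contrasts that the rule did not use were tested, and each SE is the log2 change over the root of its F statistic. Alternatives were DESeq2 1.42.0, its size factors within edgeR, no filter, only the groups compared, the replicate number as a block, control replicates 3 and 4 without DT left out, each library left out in turn and, chosen after seeing the data, 7 control libraries left out. On simulated counts of the same libraries the fit was checked before use. The members and lists were chosen with earlier results of these data known. Genes were named for r at day 1, level, test calls at day 2 and nearness to a threshold, which takes in all 11.

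Titles number the mice 1 to 4 in each group. Deviations from the group means of same-numbered libraries correlated at 0.14 to 0.18 between DTRADQ and controls without DT. DTRADQ replicate 2 correlated best with control replicate 1, however, and DTRADQ replicate 4 with control replicate 3. These weak correlations thus do not show that same-numbered mice are pairs, and no label says so. The block changed no call among the 11 genes in that comparison.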

Additional observations from a re-analysis of the deposited data

Results flagged for a closer look

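Among 88 gene and group combinations of 4 libraries, 7 held a library far from the other 3, meaning that the gap to its nearest neighbour took up more of the range than Dixon's 95% critical value for 4 samples. Chance flags about 1 in 20 groups. Ighv1-39 accounted for 3 of them: 0.853 CPM in DTRADQ replicate 4 without DT, where the other 3 lay at 1.93 to 2.05 CPM; 2.21 CPM in control replicate 2 at day 2, where the others lay at 1.31 to 1.46 CPM; and 1.47 CPM in control replicate 4 at day 3, where the others lay at 3.35 to 3.70 CPM. Control replicate 4 at day 3 was also the highest for Plek2, at 19.6 CPM against 11.6 to 12.7 CPM. Pdzk1 had 0.711 CPM in control replicate 3 at day 3 against 2.67 to 2.90 CPM. Ighv1-76 had 4.66 CPM in control replicate 2 at day 1 against 2.18 to 2.49 CPM. Lhx1 had 11.2 CPM in DTRADQ replicate 4 at day 1 against 6.54 to 7.12 CPM.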

How the results depend on the processing

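The number of genes that met the rule moved with its settings. It was 25 with CPM scaled by TMM (8 of the 11 among them; Ighv9-4, Sparcl1 and Lhx1 were lost), 7 with 1 CPM in place of 0.1 CPM added (6 of the 11), 7 with r at day 3 under 0.2, 9 with medians in place of means, and 13 without the 7 control libraries (7 of the 11). Leaving out 1 library at a time gave 9 to 35, the highest without DTRADQ replicate 4 at day 1. At day 2, DTRADQ against controls, the 3 calls became 6 when only the groups compared were fitted and 1 without the 7 control libraries. Over all genes, the 1238 calls of 14527 became 2621 of 13287 and 765 of 14890. Leaving out 1 library gave 0 to 3 calls among the 11. Without DT, the 0 calls became 1 without control replicates 3 and 4 of that group and 2 without the 7 libraries. Over all genes, the 3944 calls of 14527 became 1875 of 15044 and 1883 of 14890. Within DTRADQ, the 0 calls became 1 without the 7 libraries, while over all genes 1324 calls of 14527 became 3046 of 14890. Within controls, the 1 call became 0 with only the groups compared, where over all genes 4109 calls of 14527 became 677 of 13337. It became 3 without control replicates 3 and 4 without DT (2907 of 15044 genes) and 2 without the 7 libraries (2226 of 14890). Leaving out 1 library gave 0 to 1. For the difference between genotypes in the change from no DT to day 2, the 0 calls became 1 with no filter. Over all genes, 1613 calls of 14527 became 1230 of 28075 there. The 0 calls became 2 without control replicates 3 and 4 without DT (1854 of 15044 genes). They also became 2 without the 7 libraries (1047 of 14890 genes), and leaving out 1 library gave 0 to 2. The cause of these moves was not tested. The 7 libraries were chosen after seeing the data, and no called value changed its direction in any setting.

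With the replicate number as a block, the same-day comparison at day 2 had 3 calls, no DT 0, within DTRADQ 0, within controls 1, and the difference between genotypes 1, which is Igkv1-117. Outside the pair of groups without DT, same-numbered libraries correlated at -0.16 to 0.22, and there too they are known to share only a number. Over all genes, calls at day 2 ran from 574 to 2896 over the settings. Without DT they ran from 0, with only the groups compared, to 5947, without control replicate 1 of that group. Between 1 and 1875 reads per library stood behind a value of these genes, and at day 2 all but Ighg1, Plek2 and Igkv1-117 had a library with fewer than 50, which bounds what day 2 can show; Nacad had 9 to 16 reads in the day 2 controls and Pdzk1 had 15 to 36.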
